A study of Mus musculus with 6 samples.

Results

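Of 7031 nuclei in the droplet library of formalin-fixed paraffin-embedded (FFPE) mouse cortex, 93 carried the authors' annotation Microglia, or 1.32% (exact binomial 95% interval 1.07 to 1.62%). Members were taken by that annotation alone. They were exactly the 93 nuclei of the authors' cluster 11, 1 of 14 author clusters that were named as 12 classes. The tissue was cortex of C57BL/6J mice aged 8 to 12 weeks, cut as 50 µm scrolls, deparaffinized, rehydrated and lysed. Nuclei were run on the 10x droplet platform, in which a unique molecular identifier (UMI) lets each captured molecule be counted once. The labels give this library no treatment or genotype group and do not say how many animals it came from. The other 5 samples, from cortex of the same strain, are bulk wells that compare deparaffinization in mineral oil with heat, in xylene with heat and in xylene at room temperature with frozen tissue, and single nuclei in plates. The droplet library was compared only within itself, microglia nuclei against the other 6938 nuclei, of which 5580 lay in the 6 classes named ExNeuron (neuron classes below). With 1 library there are no replicates and no test: intervals are 95% intervals that cover counting error only.

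Microglia are the resident macrophages of the brain parenchyma. They derive from the yolk sac, depend on signalling through the receptor Csf1r, and survey the tissue with motile processes guided by purine receptors such as P2ry12. They take up synapses and debris, make complement C1q and lysosomal enzymes, and are held in their resting state by TGF-beta signalling and the transcription factor Sall1. Nuclear RNA is rich in unspliced transcripts, and formalin fixation fragments and crosslinks it.

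Microglia nuclei had the lowest median depth of the 12 classes, 285 UMIs per nucleus (quartiles 262 and 341, range 241 to 881) on a median of 253 genes. All other nuclei had a median of 325.5 UMIs on 277 genes. The median mitochondrial share was 3.69% in microglia and 3.44% in the rest. The 93 nuclei held 29296 UMIs in all, against 2575902 in the others, so a gene with 1 UMI in the class already stood at 34.1 counts per 1000000 summed UMIs (CPM). All levels below are CPM of summed UMIs, and a ratio is the level in microglia nuclei over that in all other nuclei.

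The 3 genes used to check the label were all more abundant in microglia nuclei. Csf1r, the receptor for CSF1 and IL-34, had 16 UMIs in 14 microglia nuclei, 546 CPM against 21.4 CPM elsewhere, a ratio of 25.6 (13.7 to 45.3). Inpp5d, which encodes the inositol phosphatase SHIP1, had 11 UMIs in 10 microglia nuclei and 11 UMIs in all the others, 375 against 4.27 CPM, a ratio of 87.9 (34.6 to 224). P2ry12, the ADP receptor, had 10 UMIs in 9 microglia nuclei, 341 against 16.3 CPM, a ratio of 20.9 (9.37 to 42.4). Their highest levels in another class were 53.0 CPM for Csf1r in Endothelial nuclei, 50.5 CPM for Inpp5d from 1 UMI in Fibroblast nuclei, and 27.6 CPM for P2ry12 in Oligodendrocyte nuclei. The authors' classes were made from these same counts, so such differences describe the class and do not test it.

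A list of 24 microglia identity genes gave a wider check. Of these, 23 were in the gene table, and together they had 184 UMIs in microglia nuclei, 6281 CPM (5406 to 7257), against 356 CPM (333 to 380) elsewhere, a ratio of 17.6 (14.98 to 20.7). At least 1 UMI in microglia was found for 21 of the 23. C1qb of the complement complex C1q and Ly86, a secreted partner of a Toll-like receptor homologue, each had 14 UMIs in 13 nuclei. At the low end Tyrobp had 2 UMIs and Trem2, the lipid-sensing receptor that signals through it, had 1. Aif1 and Gpr34 had none, and a count of 0 in 93 nuclei allows up to 3.23% of nuclei with a UMI by a floor of 3 counts, or 3.89% as the upper bound of the exact binomial interval.

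Single nuclei carried few of these transcripts. Microglia nuclei held a median of 2 identity UMIs (mean 1.98, maximum 10), and the number was 0 in 17 nuclei, 1 in 26, 2 in 27 and 3 or more in the others. At least 2 identity UMIs were present in 50 of 93 microglia nuclei (53.8%) and in 76 of the other 6938 (1.10%). At least 3 different identity genes were detected in 22 microglia nuclei (23.7%) and in 5 others (0.0721%), namely 2 Astrocyte, 2 ExNeuron1 and 1 ExNeuron6 nuclei. The richest microglia nucleus had 10 identity UMIs from 8 genes among 266 UMIs, including P2ry12, Cx3cr1, Selplg, Siglech, Ctss, C1qa and Slco2b1. A UMI of Csf1r, Inpp5d or P2ry12 was seen in 29 microglia nuclei (31.2%) and 106 others (1.53%), and at least 2 of the 3 genes in 4 microglia nuclei and in none of the others.

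**Figure D1:**
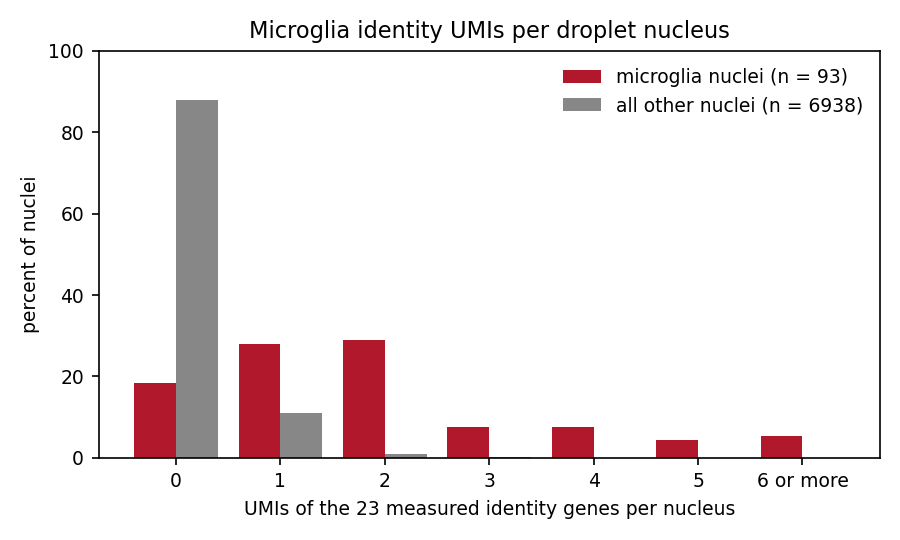
Percent of nuclei (vertical axis) by the number of UMIs from the 23 measured identity genes (horizontal axis), for the 93 microglia nuclei in red and the 6938 other nuclei in grey. No identity UMI was found in 18.3% of microglia nuclei and 88.0% of the others, and 4 or more were found only among microglia nuclei of this library.

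The 17 microglia nuclei without an identity UMI were not shallower than the other 76, with medians of 287 and 284 UMIs. All 17 held a UMI of 1 of the 44 genes outside the identity list that were called higher in the class by the rule given below, with a mean of 3.94 such UMIs per nucleus. The mean was 4.29 in the 76 nuclei with identity UMIs and 0.743 in all other nuclei, where 50.2% held such a UMI. These 44 genes were chosen for their level in the same nuclei, the 17 included, so the values are a description only.

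Depth and free RNA bear on shares of nuclei, so each nucleus was also thinned to 250 UMIs. At that depth 59 of 85 microglia nuclei (69.4%, 58.5 to 79.0%, with 8 shallower nuclei left out) held an identity UMI. In the neuron classes, taken as the background because most of these genes are not known as neuronal, 464 of 5441 nuclei (8.53%, 7.80 to 9.30%) did. Without thinning the shares were 81.7% in microglia, at a median of 285 UMIs, and 11.6% in neuron classes, at a median of 325 UMIs. The next highest classes at 250 UMIs were Fibroblast with 19.6% (9.36 to 33.9%) and Endothelial with 14.5% (9.49 to 20.7%), whose intervals overlapped. At 250 UMIs the shares in microglia and neuron classes were 16.5% and 0.478% for Csf1r, 9.41% and 0.110% for Inpp5d, and 5.88% and 0.404% for P2ry12. Thinning to 300 UMIs left 37 microglia nuclei, of which 24 (64.9%) held an identity UMI, 3 (8.11%) a UMI of Csf1r, 1 (2.70%) of Inpp5d and 3 (8.11%) of P2ry12, beside 8.46%, 0.537%, 0.0848% and 0.424% in neuron classes.

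**Figure D2:**
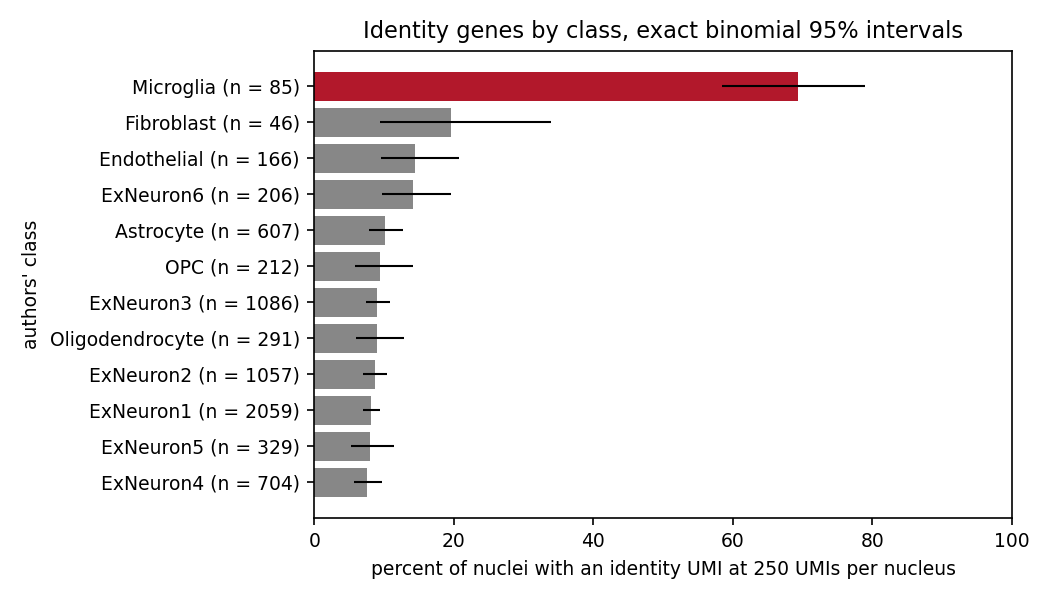
Percent of nuclei with at least 1 identity UMI after thinning to 250 UMIs per nucleus (horizontal axis), by the authors' class (vertical axis, with the nuclei kept). Lines are exact binomial 95% intervals, and microglia at 69.4% stand apart from the other 11 classes, which lie between 7.53% and 19.6%.

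Across the genome, 10601 genes had at least 20 UMIs over all nuclei and were considered. A gene was called higher at a ratio of 4 or more with at least 5 UMIs in at least 5 microglia nuclei, and lower at a ratio of 0.25 or less with the microglia count raised to a floor of 3 UMIs. By this rule of size 59 genes (0.557%) were higher and 4 (0.0377%) lower. All 59 had a ratio interval above 1, but only 26 had one above 4, and 41 rested on fewer than 10 UMIs. Together the 59 genes held 1.91% of all UMIs in microglia nuclei and 0.231% elsewhere. The identity list had 18 considered genes, of which 15 were called higher beside the 0.557% of all genes. The number was 7 at a filter of 50 UMIs, 8 against non-neuron classes, and 9 both after thinning and for the nuclei of 1 own cluster. Of the 18, 4 passed the filter only through their microglia UMIs, so this count says less than the summed level of all 23.

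The 25 largest ratios ran from 87.9 to 9.99. The first 4 genes, Apbb1ip, Inpp5d, Slco2b1 and Tmem119, had under 20 UMIs in all other nuclei and were considered only through their microglia UMIs. At a filter of 50 UMIs only 10 of the 25 were called, and the first 5 were among those with too few UMIs to be considered. Of the 25 genes, 19 belonged to lists of microglia genes, beside 23 of all 59 called higher, where 36 were on no such list. The 6 microglia lists, some of which share genes, held 18, 15, 9, 11, 13 and 20 of the 10601 considered genes. The lists were written with earlier results of these data known, so this count is a description only. Apbb1ip, an adaptor that links the GTPase Rap1 to integrin activation, shared the first place with Inpp5d at 11 UMIs in 10 nuclei and a ratio of 87.9. They were followed by Slco2b1, an organic anion transporter, at 37.7 (11.9 to 104), by Tmem119, a membrane protein used as a microglia marker, at 27.8 (9.08 to 72.3), and by Entpd1, the ectonucleotidase CD39, at 26.4 (8.67 to 68.1). Among genes on no list, Rasgrp3, an exchange factor for Ras, had 8 UMIs and a ratio of 22.7. Unc93b1, which carries nucleic acid-sensing Toll-like receptors to endosomes, had 5 UMIs and a ratio of 20.9. The lysophospholipid acyltransferase gene Lpcat2 had 7 UMIs and a ratio of 13.99, and the sialyltransferase gene St3gal6 had 6 UMIs and a ratio of 13.2.

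The gene listed as 1700112E06Rik, now named Lrmda in RefSeq and known from melanocyte differentiation, had 18 UMIs in 12 microglia nuclei, 614 against 42.7 CPM, a ratio of 14.4 (8.22 to 23.8). It spans 1036 kb on chromosome 14 (GRCm38, positions 22019712 to 23056085) and is annotated as protein coding. Its highest level in another class was 222 CPM in OPC nuclei. Lrrc73 and Utp15, a gene of ribosomal RNA processing, had 5 UMIs each, and their intervals reached down to 3.23 and 3.09. None of the 25 belonged to a list of another cell type.

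**Figure D3:**
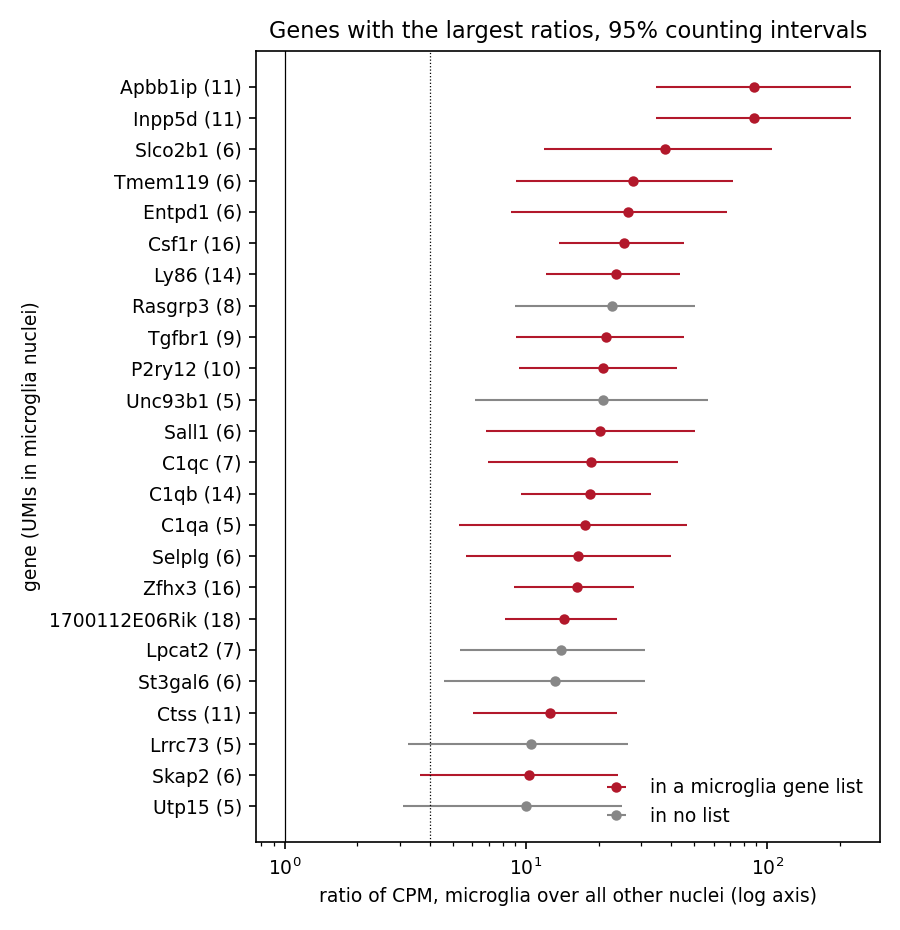
Ratio of the level in microglia nuclei over all other nuclei (horizontal log axis) for the genes with the largest ratios (vertical axis, with their UMIs in microglia nuclei). Points are ratios, lines are 95% counting intervals, red marks genes on a microglia list, and the dotted line at 4 is the size rule; the intervals of Lrrc73, Skap2 and Utp15 cross it.

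Promoters of the leading genes were searched for GAGGAAGT (ACTTCCTC on the other strand), a form of the site of PU.1, the transcription factor encoded by Spi1 that specifies macrophages; it contains the GGAA core common to the ETS family. The window ran from 250 bases before to 50 bases after each RefSeq start (GRCm38.p6). Of the 25 genes, 19 had a promoter in the table, and 6 of them held the motif (31.6%). Over the considered genes with a promoter there it was held by 261 of 8412 (3.10%), over all RefSeq genes by 997 of 27025 (3.69%), and among the genes called higher by 7 of 42 (16.7%). The 6 genes were Apbb1ip, Inpp5d, Slco2b1, Rasgrp3, C1qc and Ctss. Apbb1ip, Inpp5d and Slco2b1 are the 3 genes with the largest ratios, each considered only through its microglia UMIs. Their promoters are shown with that of Ctss, the gene of cathepsin S, because in these 4 the match begins within 20 bases of the start. Each stretch ends 30 bases after the start and capitals mark the match.
Apbb1ip, chr2:22774077-22774356, plus strand: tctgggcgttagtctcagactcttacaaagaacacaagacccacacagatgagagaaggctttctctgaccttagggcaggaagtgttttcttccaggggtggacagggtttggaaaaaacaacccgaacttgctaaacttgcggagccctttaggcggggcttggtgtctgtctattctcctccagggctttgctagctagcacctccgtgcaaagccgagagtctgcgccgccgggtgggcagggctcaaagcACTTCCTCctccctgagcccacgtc
Inpp5d, chr1:87620062-87620341, plus strand: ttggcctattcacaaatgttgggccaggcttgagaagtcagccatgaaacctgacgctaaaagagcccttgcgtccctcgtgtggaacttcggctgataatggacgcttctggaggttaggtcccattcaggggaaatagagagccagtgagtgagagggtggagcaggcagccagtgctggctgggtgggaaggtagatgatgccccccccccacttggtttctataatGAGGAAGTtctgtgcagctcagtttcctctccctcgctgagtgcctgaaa
Slco2b1, chr7:99711311-99711590, minus strand: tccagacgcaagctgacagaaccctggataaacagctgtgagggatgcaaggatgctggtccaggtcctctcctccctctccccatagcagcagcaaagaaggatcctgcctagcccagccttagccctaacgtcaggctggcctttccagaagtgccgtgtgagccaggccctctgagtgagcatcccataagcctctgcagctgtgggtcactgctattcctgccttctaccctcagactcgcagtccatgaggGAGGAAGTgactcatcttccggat
Ctss, chr3:95526536-95526815, plus strand: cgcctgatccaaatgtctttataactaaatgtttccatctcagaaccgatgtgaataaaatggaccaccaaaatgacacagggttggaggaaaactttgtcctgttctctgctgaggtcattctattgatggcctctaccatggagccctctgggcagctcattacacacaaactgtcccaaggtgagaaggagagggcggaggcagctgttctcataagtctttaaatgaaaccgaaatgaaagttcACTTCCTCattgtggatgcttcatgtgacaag
Counting the first transcribed base as 1 and the base before it as -1, the match began at 6 in Apbb1ip, -20 in Inpp5d, 7 in Slco2b1 and -2 in Ctss. It stood on the gene's own strand in Inpp5d and Slco2b1 and on the other strand in Apbb1ip and Ctss. In the promoter of P2ry12 these letters were not found. A match is a description of sequence and was not measured as a binding site. Spi1 itself had 2 UMIs in microglia nuclei and 6 elsewhere.

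Genes of surface receptors and ligand sensing were next described, 30 of 31 measured. Together they had 108 UMIs in microglia nuclei, 3687 against 745 CPM, a ratio of 4.95 (4.04 to 6.01), and 6 of 15 considered genes were called higher, beside 0.557% of all considered genes. Of the 15, 1 was considered only through its microglia UMIs. Beside Csf1r, P2ry12 and Entpd1 these were Tgfbr1, the type I receptor for TGF-beta, at 21.4, Cx3cr1, the receptor for neuronal fractalkine, at 9.77, and Itgb5, an integrin beta chain, at 6.96. Csf1r, P2ry12, Tgfbr1 and Cx3cr1 also belong to the identity list. Some lists below share genes with it too, so the ratios of such lists are not independent. Mertk, a receptor for the uptake of dying cells, had 7 UMIs and a ratio of 3.87 (1.53 to 8.16), under the rule. In the clustering described below, Mertk was also among the 10 leading genes of a cluster of 366 nuclei that held 1 microglia nucleus. Cd47, the broadly expressed ligand that inhibits phagocytosis, had 5 UMIs and a ratio of 0.589 (0.191 to 1.38). Siglech, a lectin of microglia, had 6 UMIs against 11 in all other nuclei but fell short of the 20 UMIs needed.

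Intracellular immune signalling gave 76 UMIs over 24 genes, a ratio of 4.37 (3.42 to 5.50). Called higher were Apbb1ip, Inpp5d and Skap2, an adaptor of Src-family kinase signalling, at 10.3 (3.63 to 24.1), which is 3 of 9 considered, beside 0.557% of all considered genes. Of the 9, 3 were considered only through their microglia UMIs, Apbb1ip and Inpp5d among them. The Src-family kinase gene Lyn had 8 UMIs and a ratio of 3.11 (1.33 to 6.24). Genes with too few UMIs to be considered included Syk, with 3 UMIs in microglia and 4 elsewhere, and Plcg2, with 3 and 5. Syk encodes a kinase downstream of Tyrobp and Plcg2 a phospholipase C.

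Genes of the cytoskeleton and migration had 109 UMIs, 3721 against 910 CPM, a ratio of 4.09 (3.34 to 4.95), with 2 of 11 considered genes called higher, beside 0.557% of all considered genes. They were 1700112E06Rik, described above and listed here as Lrmda, and Elmo1, which acts with DOCK proteins to activate Rac, at 25 UMIs in 21 nuclei and a ratio of 4.46 (2.86 to 6.66). Elmo1 was at 853 CPM in microglia and 451 CPM in Oligodendrocyte nuclei, its highest other class, and was not called higher against that class. Srgap2, a GTPase-activating protein of Rac also used in neurons, had 28 UMIs and a ratio of 2.72 (1.80 to 3.95). Dock2, the haematopoietic DOCK family member, had 8 UMIs in 8 microglia nuclei against 10 UMIs in all the others, 2 UMIs short of the filter.

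Transcription factors of the lineage had 146 UMIs, a ratio of 2.10 (1.77 to 2.48), and 2 of 13 considered were called higher, beside 0.557% of all considered genes. Zfhx3, a large homeobox factor, had 16 UMIs in 15 nuclei and a ratio of 16.4 (8.95 to 28.1). Sall1 had 6 UMIs in 5 nuclei and a ratio of 20.3 (6.83 to 50.4). Mef2a with 20 UMIs reached 3.77 (2.28 to 5.88) and Maf with 14 reached 3.50 (1.89 to 5.95), whereas Tcf4, which is also abundant in neurons, was at 0.812 (0.534 to 1.18). Runx1 and Ikzf1, factors of blood cell development, had 6 UMIs each in microglia against 6 and 10 elsewhere, too few to be considered.

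Complement and lysosome genes gave the most transcripts of the 6 microglia lists, 217 UMIs, 7407 against 2248 CPM, a ratio of 3.29 (2.86 to 3.77). Called higher were 6 of 20 considered, beside 0.557% of all considered genes. They included the 3 chains C1qa, C1qb and C1qc of complement C1q at 17.6, 18.4 and 18.7, Ctss at 12.6 and Lgmn, an endosomal protease, at 4.30 (1.70 to 9.10). Of those named, all but Lgmn also belong to the identity list. Cst3, the cysteine protease inhibitor cystatin C, had the most UMIs of the list, 68 in 47 nuclei, at a ratio of 2.37 (1.83 to 3.01). The broadly expressed protease genes Ctsd and Ctsb were at 2.64 (1.39 to 4.56) and 1.38 (0.788 to 2.26). The median ratio of the list was 2.92, beside 0.829 over all considered genes.

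Genes of the activated or disease-associated state had 87 UMIs, a ratio of 1.27 (1.02 to 1.57), and 0 of 9 considered genes were called. At the 0.557% called over all genes, a count of 0 among 9 says nothing about the list. Of those UMIs, 49 came from Fth1, the ferritin heavy chain, at 1.33 (0.984 to 1.77), and 28 from Apoe, which astrocytes also express, at 1.12 (0.741 to 1.62). Of the 21 measured genes, 13 had no UMI in microglia nuclei, among them Itgax, Gpnmb, Ccl3 and Ccl4, and Spp1, Lpl, Axl and Il1b had 1 each. Most were also rare elsewhere, Gpnmb with 2 UMIs and Itgax with 4 in all other nuclei, though Cd63 had 122. At this depth a low level of these genes was not detectable. Interferon response genes gave 1 UMI over 14 genes.

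**Figure D4:**
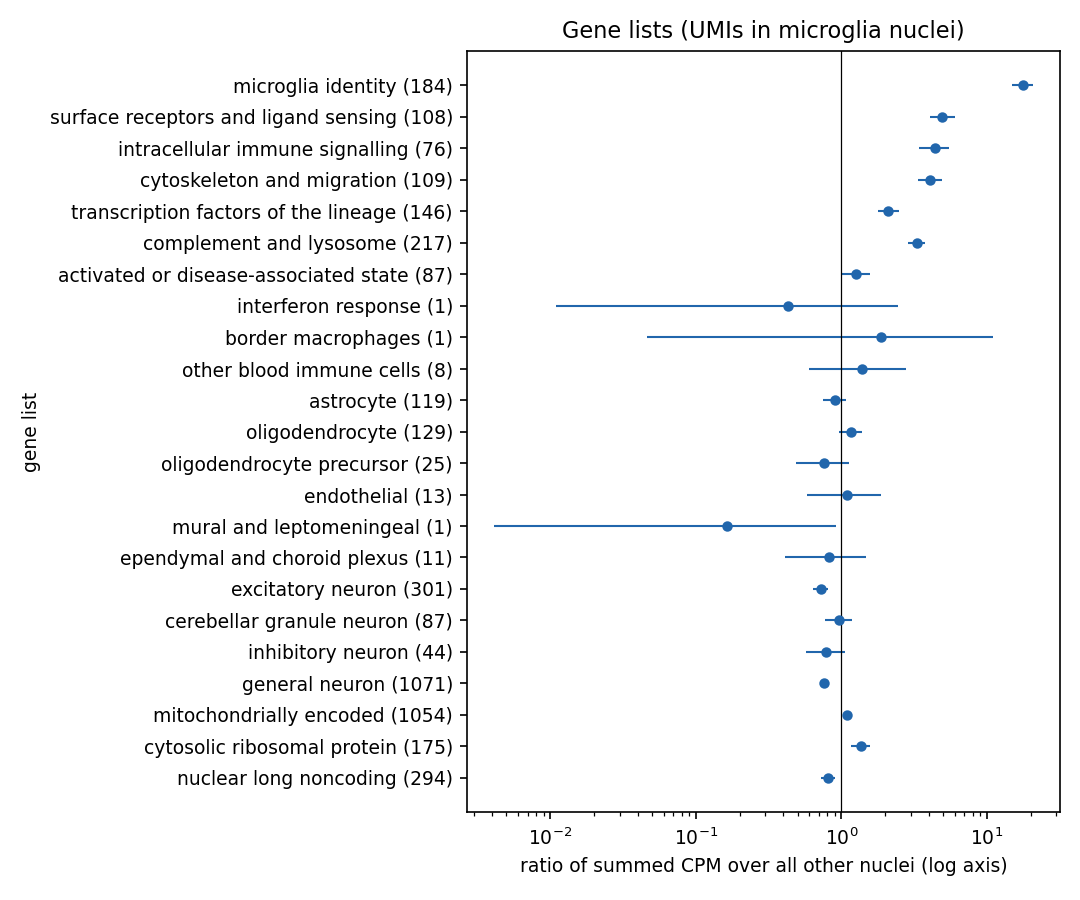
Ratio of the summed level in microglia nuclei over all other nuclei (horizontal log axis) for each gene list (vertical axis, with UMIs in microglia nuclei), with 95% counting intervals. The 6 microglia lists at the top lie between 2.10 and 17.6, and the lists of other cell types lie between 0.163 and 1.87, ends set by the mural and border macrophage lists with 1 UMI each. Some of the 6 microglia lists share genes, so their ratios are not independent.

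Markers of other cells that this class could hold were measured in the same way. Border macrophages of the meninges and vessels share much of the microglia program, and their 13 measured genes gave 1 UMI, from Stab1, with Mrc1, Cd163, F13a1, Pf4 and Cd74 all at 0. These genes had only 47 UMIs in all other nuclei. Genes of other blood immune cells gave 8 UMIs, 6 of them from Ebf1, which is also a gene of vessel-associated cells, and a ratio of 1.40 (0.599 to 2.77). The astrocyte list was at 0.903 (0.747 to 1.08) of all other nuclei and 0.329 of Astrocyte nuclei. The oligodendrocyte list was at 1.16 (0.969 to 1.38) and 0.245 of Oligodendrocyte nuclei, the endothelial list at 1.09 (0.580 to 1.88) and 0.0970 of Endothelial nuclei.

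Neuronal transcripts were found in every microglia nucleus. The 12 general neuron genes had 1071 UMIs in the class, 36558 CPM (34401 to 38815) against 50230 CPM in the neuron classes, a ratio of 0.728 (0.685 to 0.773). Against non-neuron classes alone the ratio was higher, as given below under the dependence on processing. More UMIs of these genes than of the identity genes were held by 86 of 93 microglia nuclei (92.5%), with a median of 10 per nucleus beside 16 in the other nuclei. Against all other nuclei the genes were not lowered evenly. The postsynaptic scaffold gene Dlgap1 stood at 1.12 (0.968 to 1.28) and the synaptic vesicle fusion gene Snap25 at 1.09 (0.853 to 1.36). The potassium channel subunit gene Kcnip4 was at 0.614 (0.527 to 0.710) and the cell adhesion gene Lsamp at 0.590 (0.466 to 0.737). Whether these UMIs came from free RNA, from doublets or from misplaced nuclei was not tested.

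The share of these transcripts moved with depth. In the 47 microglia nuclei at or under the class median of UMIs, identity genes made up 0.762% (0.616 to 0.933%) of UMIs and general neuron genes 3.08% (2.78 to 3.41%). In the 46 deeper nuclei the values were 0.531% (0.427 to 0.652%) and 4.07% (3.78 to 4.39%). The intervals overlapped for the identity genes and did not for the neuron genes. Without the deepest 10% of microglia nuclei the identity ratio was 18.8 and the neuron ratio 0.731. Why these shares differed with depth was not tested.

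The 4 genes called lower were Pcdh15, a protocadherin, at 2 UMIs and a ratio of 0.166 (0.0201 to 0.602), Kcnma1, the large-conductance potassium channel, at 4 UMIs and 0.182 (0.0496 to 0.467), Nrcam, a neuronal adhesion molecule, at 3 UMIs and 0.217 (0.0447 to 0.635), and Setbp1, a chromatin-associated protein, at 3 UMIs and 0.223 (0.0460 to 0.654). No UMI in microglia was seen for 3633 considered genes (34.3%). A gene at 0 needed 1056 UMIs elsewhere to be called lower, and 327 genes had that many, so depth limits how many could be called. The number called fell to 0 after thinning to 250 UMIs and to 2 without the deepest 10% of microglia nuclei.

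**Figure D5:**
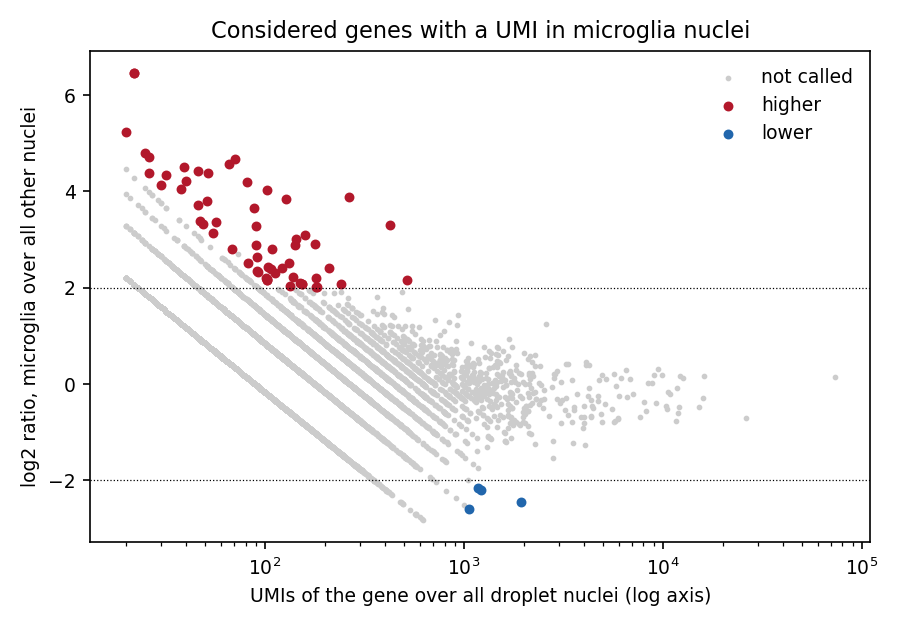
Log2 ratio of microglia over all other nuclei (vertical axis) against UMIs of the gene over all droplet nuclei (horizontal log axis) for considered genes with a UMI in microglia. Red points are the 59 genes called higher, blue points the 4 called lower, grey points the others; dotted lines mark log2 ratios of 2 and -2, and the diagonal bands are genes with 1, 2, 3 or more UMIs in microglia nuclei.

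The transcripts with most UMIs in microglia nuclei were not specific to them. The long noncoding gene model Gm42418 had 905 UMIs at a ratio of 1.10 (1.03 to 1.17), followed by Dlgap1 with 202, Kcnip4 with 182, the diacylglycerol kinase gene Dgkb with 154 and mt-Atp6 with 154. Malat1, a nuclear noncoding RNA, had 147 UMIs, 5018 against 6115 CPM, a ratio of 0.821 (0.693 to 0.965). Mitochondrially encoded genes were at 1.09 (1.02 to 1.15) and cytosolic ribosomal protein genes at 1.37 (1.17 to 1.58).

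Microglia nuclei were then set against 3 glial and vascular classes, each alone. Against 624 Astrocyte nuclei 2972 genes were considered, 21 (0.707%) were higher and 24 (0.808%) lower. Csf1r had 16 UMIs against 4, a ratio of 31.96 (10.3 to 131), and C1qb 14 against 6, a ratio of 18.6 (6.73 to 59.2). Both reached the filter of 20 UMIs only through their microglia UMIs, so that they were called followed largely from the filter. Plxdc2, a membrane protein gene, had 43 UMIs in 35 microglia nuclei and a ratio of 12.3 (7.45 to 20.5). The highest level of Plxdc2 in another class was 386 CPM in Oligodendrocyte nuclei, from 42 UMIs, against 1468 CPM in microglia. It was not called higher against that class. Of the lower genes 5 belonged to the astrocyte list, among them Gpc5, a glypican, at 0.0307 (0.00371 to 0.112). Against 298 Oligodendrocyte nuclei, 12 of 1422 genes (0.844%) were higher, among them Csf1r at 11.9 (4.16 to 41.5), which with 5 Oligodendrocyte UMIs again passed the filter only through microglia, and 22 (1.55%) lower, among them Prr5l of the oligodendrocyte list at 0.0360 (0.000904 to 0.205). Against 174 Endothelial nuclei 3 of 731 genes were higher (0.41%), among them Plxdc2 at 4.37 (2.49 to 7.94) and 1700112E06Rik at 5.80 (2.20 to 17.8), and 18 (2.46%) were lower. All 3 higher genes had under 20 Endothelial UMIs, with 19 for Plxdc2 and 6 for 1700112E06Rik. They passed the filter only through their microglia UMIs, so these calls also followed largely from the filter.

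Clustering the nuclei again did not recover the class. At Leiden resolution 1 the largest share of microglia nuclei in 1 cluster was 53 of 93 (57.0%), in a cluster of 1306 nuclei that held 2 identity genes, Tmem119 and C1qb, among its 10 leading genes. No cluster had 3 identity genes among its 10. At resolution 2 a cluster of 57 nuclei was led by Tmem119, Ctss, Csf1r, 1700112E06Rik and C1qb and held 14 of the 93 (15.1%). For the 53 nuclei of the larger cluster alone the identity ratio was 20.7 and the neuron ratio 0.660, with 48 genes higher, of which 26 were among the 59. The authors' clusters were used as deposited, and the settings behind them were not given in the labels or headers.

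The leading genes were also described by span, which the annotation did not use. The median span of the 59 genes called higher was 53.5 kb in the GENCODE M21 annotation, beside 31.8 kb for all considered genes, and that of the 18 considered identity genes was 19.5 kb. Among genes with at least 100 UMIs the medians were 71.3 kb for 29 genes called higher and 53.2 kb for 5107 considered, among those with 50 to 99 UMIs they were 37.5 and 25.6 kb, and among those with 20 to 49 UMIs they were 16.9 and 19.4 kb. The 4 genes called lower had a median span of 542 kb, beside 300.3 kb for the 327 genes with enough UMIs to be called lower at a count of 0.

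The identity genes were also present in the other libraries of the cortex, which the annotation did not use; 21 of the 24 were measured there. In SMART-Seq2 plates, 8 of 98 FFPE nuclei of batch 1 and 33 of 134 of batch 2 held at least 3 identity genes, as did 72 of 137 frozen nuclei. Depth differed, with medians of 1603, 1555 and 4382 genes per nucleus, so these counts are given side by side only. They take each plate nucleus as separate, although some pairs correlated at r over 0.9 (given among the closing observations), and whether all are separate nuclei was not tested. In bulk SCRB-seq wells the summed level of the genes had a median of 633 CPM (444 to 1391) over 16 wells after xylene with heat, 655 CPM (405 to 1893) after xylene at room temperature, 271 CPM (0 to 1626) after mineral oil, and 246 CPM (114 to 664) in 16 frozen wells. The ranges of all 4 groups overlapped. In SMART-Seq2 bulk wells, 3 in each group, the level ran from 233 to 1004 CPM after xylene with heat, 123 to 334 CPM after xylene at room temperature, 0 to 1689 CPM after mineral oil and 18.0 to 107 CPM in frozen tissue. There both xylene groups lay above the frozen wells without overlap, and mineral oil overlapped them. In bulk wells fewer microglia and less RNA per cell cannot be told apart.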

How the data were processed

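The droplet matrix holds UMI counts per gene and nucleus as deposited by the authors, with the reference named mm10_premrna per the file headers. The plate and bulk tables hold counts as deposited, and hg19 and mm10 are the builds in the submitters' processing notes; aligner and counter names were not given in the sources used here. Each mitochondrial fraction, class and cluster label is the authors' deposited value. Nuclei had been filtered before deposit: every one has at least 220 genes. Matrix sums equalled the authors' UMI totals in 98.1% of nuclei, and barcodes were not repeated (0 repeats).

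Counts were summed over the 93 microglia nuclei and over other nuclei and divided by the summed UMIs (CPM). Intervals are exact Poisson for levels, exact binomial for shares and exact conditional binomial for ratios, at 95%, and cover counting error only. Genes needed 20 UMIs over all nuclei. Called genes, thinning to 250 UMIs, and named genes (the 3 markers, list members, 25 largest ratios, lower genes, 5 genes with most UMIs and Malat1) followed rules written with earlier results of these data known, as were the members and lists; Plxdc2 was named after its values were seen. List genes and promoters under another symbol were matched through RefSeq synonyms, after the data had been seen. Code was tested on simulated data. Clusters used scanpy 1.11.5 (2000 variable genes, 30 components, 15 neighbours). Scrublet marked 4 of 7031 nuclei as doublets (0.0569%), none of them microglia, so the caller did not work here and doublets were not removed. Alternatives were other folds, filters, scalings, comparison classes and subsets of nuclei. Plate batch 3 was not analysed here, and some genes that enter the counts and sums are not reported here by name.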

Additional observations from a re-analysis of the deposited data

How the results depend on the processing

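The identity ratio of 17.6 was 20.7 for the 53 microglia nuclei of 1 own cluster and 14.7 against non-neuron classes alone, and within its counting interval under every other alternative tried. The general neuron ratio of 0.762 was 0.660, 0.953 and 0.847 for that cluster, for non-neuron classes and for classes of equal weight, below 1 throughout. Genes called higher numbered 272 at 2-fold and 30 at 8-fold in place of 59; under the other alternatives there were 40 to 64, of which 26 to 59 were among the 59. Identity genes called higher numbered 7 at a filter of 50 UMIs, where the 5 genes with the largest ratios were not considered, 8 against non-neuron classes and 9 after thinning and for the own-cluster nuclei, in place of 15. Of the 25 genes with the largest ratios, 10 were called at that filter, 13 after thinning, 12 for the own-cluster nuclei and 13 against non-neuron classes. Thinning kept 34 of the 59. Genes called lower numbered 100 at 2-fold, 0 at 8-fold, 7 by mean CPM per nucleus, 0 after thinning, 2 without the deepest 10% and 8 against non-neuron classes, in place of 4. The share of microglia nuclei with an identity UMI was 81.7% without thinning, in place of 69.4%. At resolution 2 the largest share of the class in 1 own cluster was 25.8%. At resolution 1 no own cluster met the 3-gene rule, so the share of the class from own clusters has no value there, and this was not computed at resolution 2, where 1 cluster met the rule. The cause of these shifts was not tested. No paired analysis was possible because the comparison lies within 1 library. Depth limits what can be called lower, and 41 of the 59 genes rest on under 10 UMIs.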

Other observations

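Among FFPE plate nuclei a few carried much of the identity list, by a threshold of 10 genes chosen after the values were seen. In batch 1 a single nucleus had 17 of the 21 measured identity genes on 2.64% of its counts, and the next highest nucleus of that batch had 5. In batch 2, 6 nuclei had 13 to 16 genes on 1.88% to 4.36% of their counts, and the next highest had 9. Each of these nuclei held Csf1r, Cx3cr1, Tyrobp, Ctss and C1qb. Among 137 frozen nuclei 31 reached 10 genes, but they detected 4895 to 15337 genes each, with a median of 0.0653% of their counts on the list (0.00273 to 1.91%).

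The 6 nuclei of batch 2 were not equally distant from each other. Across 21608 genes, 2 of them correlated at r = 0.877 and another 3 at r = 0.673 to 0.749, whereas the median pair of the batch correlated at 0.188. Pairs over r = 0.9 numbered 41 in batch 2 (64 of 134 nuclei), 8 in batch 1 (16 of 98) and 82 among the frozen nuclei (99 of 137). These correlations are across genes, which are not independent replicates, and their cause was not tested. The counts of nuclei given here take each as separate, and whether they are was not tested.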
